A study of Homo sapiens and Mus musculus with 27 samples.

Results

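The unfolded protein and integrated stress response genes described here are 45 genes, taken by name from the 3 deposited count tables of a breast cancer RNA-seq study, ignoring letter case. All 45 names were found among 59453 gene names in each human table and 55367 in the mouse table. They were read in 4 arms: 10 ATF4-CHOP regulators, 10 genes of amino acid synthesis and transport, 18 endoplasmic reticulum (ER) sensors and chaperones, and 7 heat shock and heme genes.

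The study addressed the MKL1/SRF pathway in metastatic breast cancer cells, MKL1 (gene MRTFA) being an actin-regulated coactivator of serum response factor. LM2, a lung-metastatic subline of the human MDA-MB-231 breast cancer line, and 4T1, a mouse mammary carcinoma line, each carried caMKL1 (caMKL1 OE), wild-type MKL1 (WT MKL1 OE) or a control. The caMKL1 samples bear the genotypes caMKL1, caMKL2 and caMKL3 over their replicates although titles and treatments all read caMKL1, and MKL1 and control samples bear the genotype WT. In the LifeAct experiment, LM2 cells of genotype WT were negative (control), low or high in LifeAct, an actin filament-binding peptide, which gives 9 groups of 3 libraries. The labels name no construct sequence, promoter, clone or batch, and they do not say whether libraries came from separate cultures, so p-values below measure only the spread between these libraries.

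In the integrated stress response, stress-activated kinases phosphorylate the translation factor eIF2, which lowers general protein synthesis while ATF4 is translated more. ATF4 then raises genes for amino acid synthesis and uptake, transfer RNA charging and, with CHOP (DDIT3) and ATF3, a further set of stress genes. In the unfolded protein response, misfolded protein in the ER activates PERK, IRE1 (ERN1) and ATF6, and spliced XBP1 and cleaved ATF6 raise ER chaperones, while heat shock factor 1 drives the cytosolic heat shock genes. Gene counts read the abundance of these transcripts, not XBP1 splicing, ATF6 cleavage or ATF4 translation.

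Promoters are shown here for genes on which the results turn, with the response elements found in them. Human promoter windows of 300 bases (250 before and 50 after a start site) were taken from RefSeq on build GRCh38.p14 for 40 of the 45 genes, with no entry used for PSPH, SHMT2, SLC7A11, PDIA3 and HMOX1. The ER stress element, read by XBP1 and ATF6 and searched as CCAAT, 9 bases of any kind, then CCACG on either strand, was found in 7 of 40 genes (17.5%), against 0.0769% of all 35116 promoter windows. Some genes have several windows, and such a gene was counted if any of its windows matched. The share of genes is therefore not like for like with the share of windows, here and for the elements below. The genes were also picked as members of these stress responses, so the contrast is a description and not a test. All 7 genes (CALR, CANX, CRELD2, HSP90B1, HSPA5, PDIA6 and XBP1) are in the ER arm. Below, the element is in capitals in the strand of the gene; in CALR and CRELD2 and in the second HSP90B1 site it lies on the opposite strand. Sites of 5 of the 7 genes are shown, as examples on both strands, a choice made after the values were seen.
HSPA5: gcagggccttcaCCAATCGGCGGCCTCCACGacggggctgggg
XBP1: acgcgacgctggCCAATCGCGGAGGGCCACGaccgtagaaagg
HSP90B1: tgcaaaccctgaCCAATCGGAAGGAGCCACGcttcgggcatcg
HSP90B1: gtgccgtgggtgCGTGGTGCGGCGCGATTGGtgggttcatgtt
CALR: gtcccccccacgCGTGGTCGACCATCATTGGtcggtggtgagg
CRELD2: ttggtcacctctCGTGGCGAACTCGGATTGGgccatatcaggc
These windows lie at chr9:125241379-125241421 (- strand) in HSPA5, chr22:28800591-28800633 (- strand) in XBP1, chr12:103930204-103930246 (+ strand) and chr12:103930309-103930351 (+ strand) in HSP90B1, chr19:12938372-12938414 (+ strand) in CALR and chr22:49918542-49918584 (+ strand) in CRELD2. The whole HSPA5 promoter window, chr9:125241294-125241593 on the - strand, puts the element 66 bases before the start site.
HSPA5 promoter: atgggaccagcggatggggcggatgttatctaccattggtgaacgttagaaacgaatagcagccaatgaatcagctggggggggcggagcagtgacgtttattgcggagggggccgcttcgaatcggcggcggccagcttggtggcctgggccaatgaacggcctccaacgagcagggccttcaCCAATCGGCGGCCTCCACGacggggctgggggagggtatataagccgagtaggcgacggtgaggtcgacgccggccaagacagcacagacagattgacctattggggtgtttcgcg

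The C/EBP-ATF response element (CARE), bound by ATF4 with its partners and searched as TGATGNAA on either strand, was found in 6 of 40 genes (15%), against 3.62% of all windows. These shares again set genes against windows, and a gene with several windows has more chances to match. The 6 genes are ASNS, ATF3, CEBPG, CHAC1, HERPUD1 and SLC3A2, of which the last has the CARE only after the start site. It is in capitals below, on the strand of the gene in ATF3 and CEBPG and on the opposite strand in the other 3.
ATF3: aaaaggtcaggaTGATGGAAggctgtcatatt
CEBPG: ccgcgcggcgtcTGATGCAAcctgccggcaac
CHAC1: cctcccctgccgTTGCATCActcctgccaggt
HERPUD1: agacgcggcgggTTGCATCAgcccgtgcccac
SLC3A2: gtgcaggactccTTACATCAgctcc
They lie at chr1:212565204-212565235 (+ strand) in ATF3, chr19:33374059-33374090 (+ strand) in CEBPG, chr15:40953250-40953281 (+ strand) in CHAC1, chr16:56931954-56931985 (+ strand) in HERPUD1 and chr11:62881724-62881748 (+ strand) in SLC3A2. The ATF3 window around it, chr1:212565157-212565456 on the + strand, belongs to the more upstream of its start sites in the table.
ATF3 promoter: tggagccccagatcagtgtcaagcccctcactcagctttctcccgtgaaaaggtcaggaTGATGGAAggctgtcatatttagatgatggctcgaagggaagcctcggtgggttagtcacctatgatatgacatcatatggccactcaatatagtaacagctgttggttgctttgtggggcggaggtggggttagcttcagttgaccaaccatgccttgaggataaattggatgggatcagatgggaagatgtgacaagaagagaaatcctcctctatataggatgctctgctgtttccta

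The heat shock element, searched as GAA, 2 bases, TTC, 2 bases, GAA on either strand, was found in HSPA8 and HSP90AA1, 2 of 40 genes (5%) against 0.49% of all windows. HSPA8 has it at chr11:123062342-123062378 (- strand) and, on the opposite strand, at chr11:123062167-123062203 (- strand), shown in that order.
HSPA8: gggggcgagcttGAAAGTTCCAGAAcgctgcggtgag
HSPA8: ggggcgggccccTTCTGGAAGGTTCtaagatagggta
The core of the unfolded protein response element (TGACGTGG) and the CArG box, the site of serum response factor, were in 0 of 40 genes, against 0.729% and 1.29% of all windows. Here too, shares of genes were set against shares of windows. A match is a description of the letters searched, and its absence says only that they are not in the windows of that gene.

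MRTFA itself averaged 218 CPM (counts scaled to library size by TMM) in caMKL1, 162 in MKL1 and 10.8 in control LM2 libraries, with no overlap between treated and control libraries. In 4T1 cells it averaged 623 CPM in caMKL1, 2142 in MKL1 and 39.1 in control libraries, and 28.2, 33.5 and 40.8 CPM in LifeAct negative, low and high libraries. Libraries held 15581289 to 32147377 counts. Keratin and vimentin transcripts were present in all groups, while CDH1 averaged at most 0.471 CPM in LM2 cells. Of 6 leukocyte and endothelial markers, CD3E was at 0 in LM2 control, LifeAct low and all 4T1 groups, and 5 or 6 had counts in each group. Their summed level was 97.3 to 99.6 CPM in LifeAct negative, 32.7 to 34.4 in low and 9.63 to 11.6 in high libraries, mostly PECAM1. It was 62.8 to 71 CPM in caMKL1, 20.7 to 23.5 in MKL1 and 6.64 to 6.85 in control 4T1 libraries, mostly Cd68, and at most 4.74 in LM2. The mitochondrial share was 7.76, 13.4 and 13.6% in LM2 caMKL1 libraries, 6.18, 9.87 and 7.11% in MKL1 and 7.84, 7.73 and 8.94% in control, and the first library of each treated group was the lowest of its group. The part of these differences in the results below was not tested.

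With caMKL1 in LM2 cells, 22 of the 45 genes rose and 10 fell against control at an adjusted p under 0.05, where 31.9% of all 18893 tested genes rose and 33.0% fell. Read in both directions together, 32 of 45 is a share close to that of all genes, and the median log2 ratio was 0.29 over the 45 and -0.05 over all genes. Scaled by library totals in place of TMM, which moves the median of all genes by -0.41 on the log2 scale, 17 rose and 17 fell. By that scaling 4137 of all 18893 genes rose and 9271 fell. The shares of all genes given in percent, here and below, are by TMM. Counts by library totals are therefore not like for like with them. With MKL1, 9 rose and the other 36 did not pass, against 7.24% of all genes higher and 4.74% lower (3 higher and 2 lower by library totals). Library totals gave 918 of all genes higher and 1241 lower with MKL1. Between caMKL1 and MKL1, 19 were higher and 13 lower in caMKL1 (13 and 20 by library totals, a shift of -0.33), against 32.6% and 31.9% of all genes. Here library totals gave 4425 of all genes higher and 8637 lower. Without the first library of caMKL1 and of MKL1, 35 of the 45 passed with caMKL1, 11 with MKL1 and 37 between caMKL1 and MKL1. The share of all genes that passed in this refit is not given here, so these counts are not read as particular to the 45.

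In 4T1 cells more of the genes rose than fell with caMKL1, and more fell than rose with MKL1. Of 44 genes tested (Hspa1a had too few counts), 29 rose and 8 fell with caMKL1, against 36.2% of all 16297 tested genes higher and 35.8% lower, and by library totals, a shift of -0.18, 21 rose and 13 fell. By that scaling 4528 of all genes rose and 7581 fell. With MKL1, 8 rose and 23 fell, against 19.3% of all genes higher and 15% lower (4 and 28 by library totals). Library totals gave 2324 of all genes higher and 3861 lower with MKL1. Between caMKL1 and MKL1, 34 were higher and 5 lower in caMKL1 (33 and 9 by library totals), against 33.8% and 32.8% of all genes, with a shift of -0.12 by library totals. Here library totals gave 4534 of all genes higher and 6693 lower. Both comparisons with control share the control libraries in each line.

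In LM2 cells grouped by LifeAct expression, 31 of the 45 genes rose and 5 fell in low against negative cells, where 26.0% of all 21869 tested genes rose and 23.6% fell. In high against negative cells 35 rose and 5 fell, against 36.0% and 35.2% of all genes, with a median log2 ratio of 0.51 over the 45 and -0.03 over all. From low to high expression, 29 were higher and 5 lower in high cells (25 and 9 by library totals), against 26.6% and 23.7%. Library totals gave 4657 of all genes higher and 6433 lower in this step. These comparisons share libraries, and in bulk RNA fewer cells of a type and less RNA per cell cannot be told apart. The 45 genes together took 0.835 to 0.856% of counts in negative, 1.12 to 1.14% in low and 1.24 to 1.26% in high libraries.

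**Figure D1:**
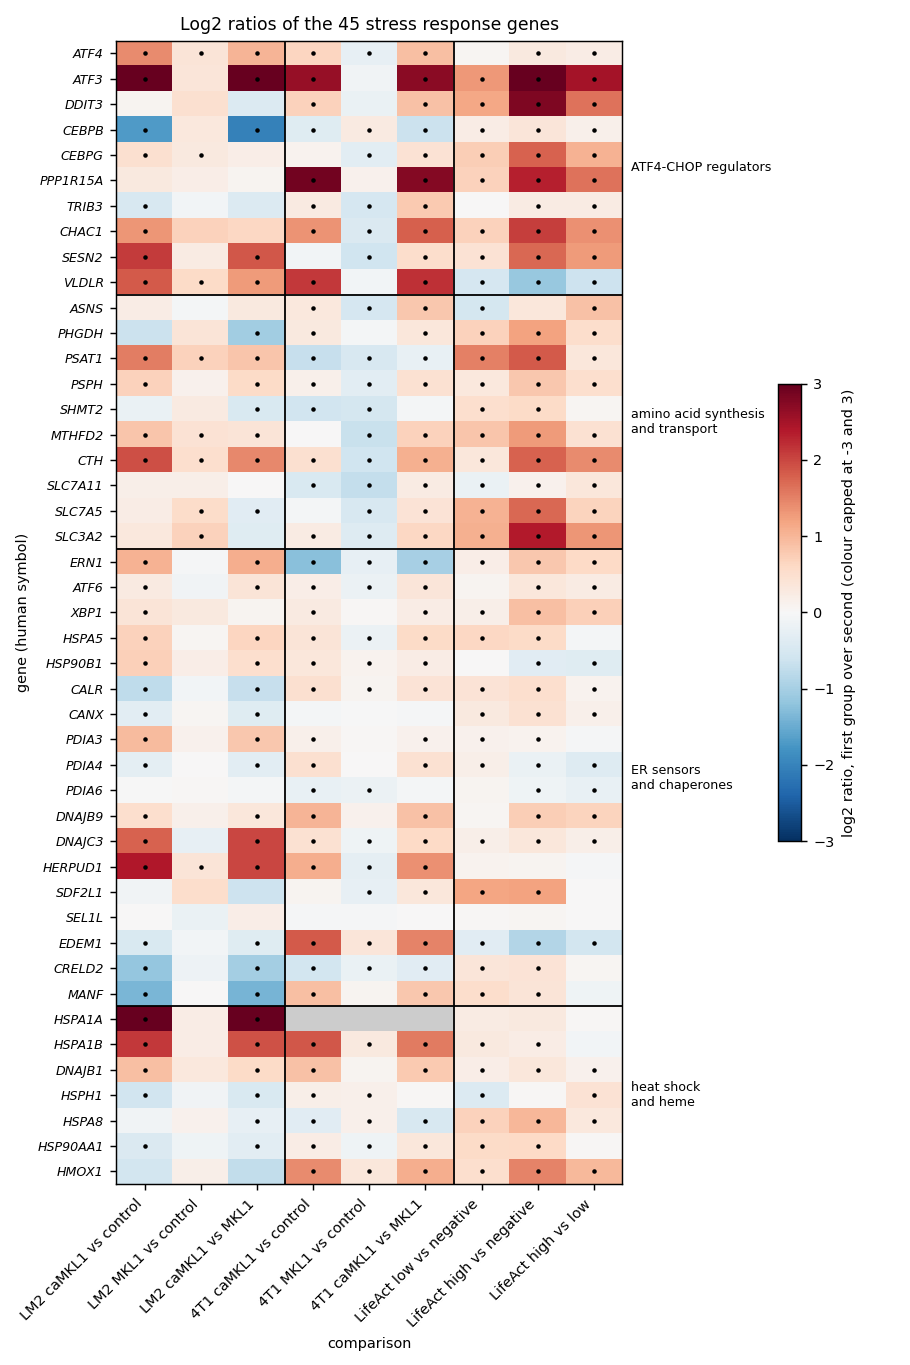
Log2 ratios (colour, first group over second) of the 45 genes (rows, by arm) in the 9 comparisons (columns), with a dot where the adjusted p was under 0.05 and grey where a gene was not tested. The upper 2 arms are mostly red in the LifeAct columns, mostly pale red in LM2 MKL1 and mostly pale blue in 4T1 MKL1, while the ER arm mixes both colours.

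Among the ATF4-CHOP regulators, 6 of 10 rose and 2 fell with caMKL1 in LM2 cells, with a median log2 ratio of 0.91, and 3 rose with MKL1 (1 and 0 by library totals). Of all genes, 31.9% rose and 33.0% fell with caMKL1, and 7.24% rose and 4.74% fell with MKL1. ATF4, the central transcription factor of the response, had 459, 466 and 472 CPM in caMKL1, 276, 219 and 193 CPM in MKL1 and 167, 182 and 175 CPM in control libraries. Every caMKL1 library lay above every other library, a log2 ratio to control (with its standard error, from edgeR) of 1.41 ± 0.11 (adjusted p = 2.07e-08). The MKL1 libraries also lay above control, by 0.39 ± 0.11 (adjusted p = 0.0328), a call lost by library totals (0.32, adjusted p = 0.0889) and in 4 of the 9 fits that left out 1 library. ATF3, a stress-induced factor of the ATF family, had 87.4, 67.8 and 73.0 CPM in caMKL1, 8.57, 6.10 and 5.51 CPM in MKL1 and 5.39, 5.58 and 4.78 CPM in control libraries. It was 14.5-fold higher with caMKL1 (3.86 ± 0.16, adjusted p = 9.8e-12), while MKL1 and control overlapped (0.36 ± 0.17, adjusted p = 0.183). SESN2, a stress-induced inhibitor of mTORC1 signalling, had 24.6, 18.2 and 15.3 CPM in caMKL1, 5.97, 5.32 and 4.83 CPM in MKL1 and 4.05, 5.46 and 4.07 CPM in control libraries. It was again high in caMKL1 alone (2.10 ± 0.19, adjusted p = 7.68e-08). VLDLR, a lipoprotein receptor known as an ATF4 target, had 70.7, 73.7 and 67.4 CPM in caMKL1, 26.4, 28.6 and 32.5 CPM in MKL1 and 17.7, 19.0 and 22.1 CPM in control libraries. Its 3 groups did not overlap, and the ratios to control were 1.85 ± 0.11 (adjusted p = 7.22e-10) with caMKL1 and 0.57 ± 0.11 (adjusted p = 0.00323) with MKL1.

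DDIT3, which encodes CHOP, did not follow ATF4 and ATF3 in LM2 cells. It had 10.8, 9.81 and 10.8 CPM in caMKL1, 18.7, 12.6 and 10.1 CPM in MKL1 and 9.93, 10.3 and 9.49 CPM in control libraries. The groups overlapped, with ratios to control of 0.08 ± 0.18 (adjusted p = 0.729) for caMKL1 and 0.48 ± 0.18 (adjusted p = 0.103) for MKL1. Exons of MARS1 on the opposite strand cover 27.2% of its length, and reads there cannot be assigned to strand. PPP1R15A, the stress-induced partner of the eIF2 phosphatase, did not pass either (0.29 on the log2 scale with caMKL1, adjusted p = 0.0979). CHAC1, a glutathione-degrading enzyme, rose by 1.33 at a mean of only 1.77 CPM in caMKL1 and 0.706 CPM in control libraries. Its adjusted p was 0.0511 without caMKL1 library 1, 0.0667 without caMKL1 library 2, 0.0549 without control library 1 and 0.0825 by library totals. CEBPB, a C/EBP family factor, fell to a log2 ratio of -1.70 ± 0.16 (adjusted p = 1.06e-07) with caMKL1. TRIB3, a pseudokinase that dampens ATF4 signalling, fell by 0.49 with caMKL1, with an adjusted p of 0.152 without caMKL1 library 2, 0.0837 without caMKL1 library 3 and 0.0962 without control library 2. CEBPG, the dimer partner of ATF4, had 99.9, 96.3 and 99.5 CPM in caMKL1, 94.2, 83.6 and 79.7 CPM in MKL1 and 72.7, 71.6 and 67.4 CPM in control libraries. Its ratio was 0.48 ± 0.088 (adjusted p = 0.000165) with caMKL1 and 0.07 (adjusted p = 0.499) by library totals.

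In 4T1 cells 7 of the 10 regulators rose and 1 fell with caMKL1 (6 and 2 by library totals), and 1 rose and 5 fell with MKL1. The shares of all genes that rose and fell were 36.2% and 35.8% with caMKL1 and 19.3% and 15% with MKL1. Ppp1r15a had 160.3, 158 and 169 CPM in caMKL1, 22.0, 20.0 and 30.2 CPM in MKL1 and 22.0, 18.9 and 25.5 CPM in control libraries. Its log2 ratio was 2.89 ± 0.088 (adjusted p = 4.36e-19) with caMKL1, while MKL1 and control libraries overlapped (0.12 ± 0.11, adjusted p = 0.428). Atf3 had 122, 129 and 141 CPM in caMKL1, 18.6, 18.6 and 23.2 CPM in MKL1 and 22.9, 18.7 and 23.2 CPM in control libraries. Vldlr had 139, 145 and 136 CPM in caMKL1, 31.1, 29.1 and 31.8 CPM in MKL1 and 33.2, 30.6 and 32.9 CPM in control libraries. Both stood far above the other groups with caMKL1 alone (2.60 ± 0.072, adjusted p = 5.96e-20 for Atf3 and 2.12 ± 0.045, adjusted p = 2.96e-22 for Vldlr), and neither passed with MKL1 (adjusted p = 0.433 and 0.319). Ddit3 had 34.1, 37.4 and 35.7 CPM in caMKL1, 18.5, 17.4 and 22.2 CPM in MKL1 and 22.6, 19.6 and 24.1 CPM in control libraries, higher with caMKL1 (0.70 ± 0.077, adjusted p = 1.88e-08). Atf4 had 485, 494 and 501 CPM in caMKL1, 262, 257 and 277 CPM in MKL1 and 321, 301 and 327 CPM in control libraries. Its 3 groups did not overlap, with caMKL1 highest (0.64 ± 0.033, adjusted p = 1.12e-14) and MKL1 below control (-0.25 ± 0.033, adjusted p = 1.82e-06).

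The regulators that fell with MKL1 in 4T1 cells included Sesn2, Trib3 and Chac1. Sesn2 had 31.0, 29.6 and 38.0 CPM in caMKL1, 23.9, 20.8 and 23.7 CPM in MKL1 and 35.4, 30.9 and 38.0 CPM in control libraries. It was low in MKL1 alone (-0.61 ± 0.086, adjusted p = 4.2e-06 against control, with caMKL1 at -0.08 ± 0.081, adjusted p = 0.386). Trib3 had 86.4, 92.7 and 95.7 CPM in caMKL1, 53.5, 48.1 and 58.9 CPM in MKL1 and 80.9, 64.7 and 82.0 CPM in control libraries. MKL1 lay below both other groups (-0.50 ± 0.073, adjusted p = 6.11e-06) and caMKL1 above control by a margin that was lost by library totals (0.09, adjusted p = 0.211). Chac1 had 121, 128 and 139 CPM in caMKL1, 37.9, 32.9 and 41.6 CPM in MKL1 and 55.1, 43.9 and 53.3 CPM in control libraries. Its groups were ordered caMKL1, control, MKL1 without overlap (1.35 ± 0.069, adjusted p = 1.3e-14 with caMKL1 and -0.44 ± 0.078, adjusted p = 9.27e-05 with MKL1). Cebpb was the exception in both directions, at -0.37 with caMKL1 and 0.28 with MKL1 on the log2 scale, and was the one regulator that rose with MKL1.

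With LifeAct, 7 of 10 regulators rose in low cells and 9 in high cells, at a median log2 ratio of 1.74 for high against negative, and VLDLR fell in both (-0.51 and -1.13). Of all genes, 26.0% rose and 23.6% fell in low cells, and 36.0% rose and 35.2% fell in high cells. ATF3 had 11.6, 9.75 and 10.7 CPM in negative, 26.5, 27.3 and 25.0 CPM in low and 154, 146 and 141 CPM in high libraries. Each step of LifeAct expression lay above the one before (1.29 ± 0.079, adjusted p = 5.62e-14 for low and 3.78 ± 0.068, adjusted p = 5.78e-27 for high against negative). DDIT3 had 14.1, 13.3 and 12.6 CPM in negative, 28.9, 29.8 and 30.9 CPM in low and 97.7, 85.5 and 93.7 CPM in high libraries. Its groups again lay in steps that did not overlap (1.17 ± 0.077, adjusted p = 2.95e-13 for low and 2.79 ± 0.07, adjusted p = 1.23e-23 for high). PPP1R15A had 135, 132 and 126 CPM in negative, 206, 217 and 210.0 CPM in low and 674, 620.5 and 673 CPM in high libraries. Its ratio was 2.32 ± 0.044 (adjusted p = 1.76e-26) in high cells. CEBPG followed with 23.3, 23.7 and 25.1 CPM in negative, 39.5, 38.1 and 42.3 CPM in low and 80.3, 80.3 and 85.3 CPM in high libraries (1.77 ± 0.061, adjusted p = 2.7e-20 in high cells). The ATF4 transcript itself had 278, 272 and 248 CPM in negative, 279, 271 and 284 CPM in low and 343, 313 and 323 CPM in high libraries. Its low and negative libraries overlapped (0.06 ± 0.044, adjusted p = 0.235) and only the high libraries lay above both (0.30 ± 0.044, adjusted p = 1.04e-06). CHAC1 and SESN2 were at 2.07 and 1.71 on the log2 scale in high cells, and TRIB3 and CEBPB at 0.25 and 0.37.

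**Figure D2:**
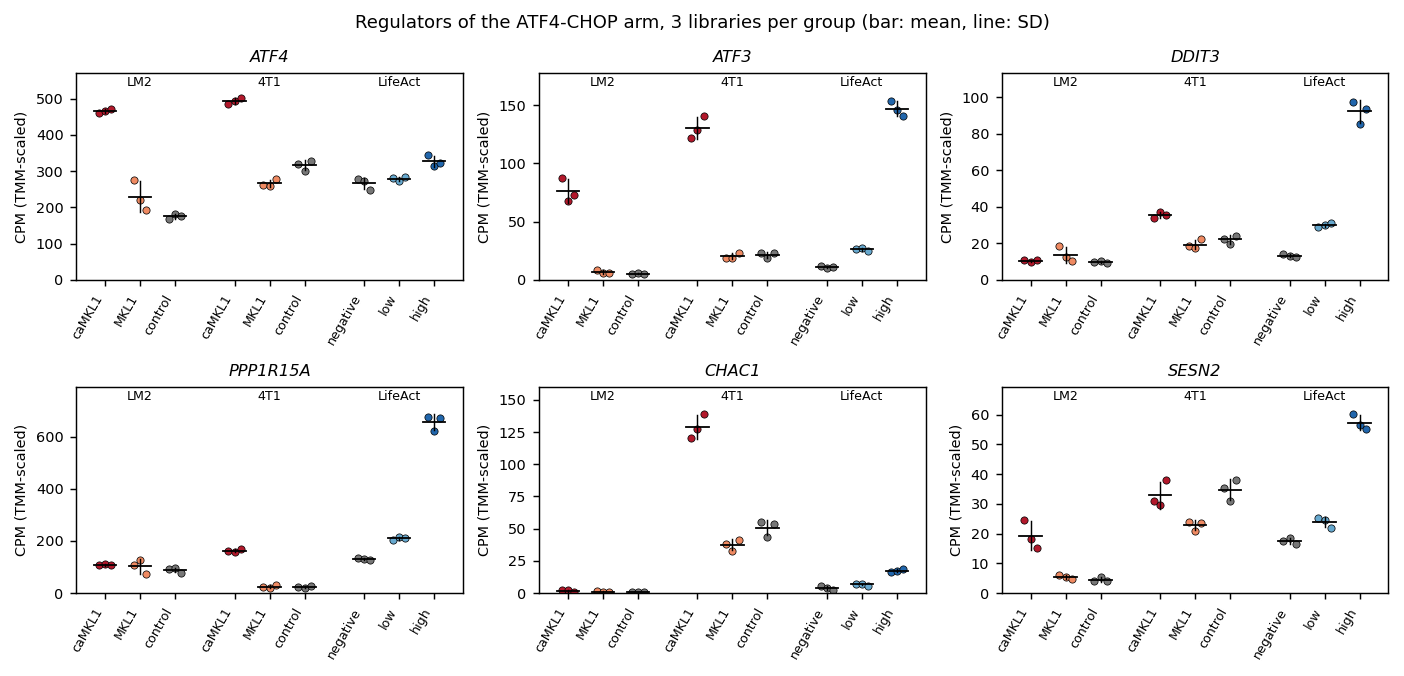
CPM (linear axis from 0) of 6 ATF4-CHOP regulators in each of the 27 libraries (points), with group means (bars) and SD (lines). ATF3 stands high in caMKL1 of both lines and in LifeAct high, DDIT3 and PPP1R15A in LifeAct high, and PPP1R15A and CHAC1 with caMKL1 in 4T1 cells; the caMKL1 and control means of PPP1R15A in LM2 are 109 and 88.7 CPM.

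The amino acid arm gave different counts in the 3 experiments. In LM2 cells 4 of 10 genes rose with caMKL1 and the other 6 did not pass (4 and 3 by library totals). With MKL1, 5 rose and 5 did not pass (2 and 0 by library totals). In 4T1 cells 5 rose and 3 fell with caMKL1 (3 and 5 by library totals), and 9 of 10 fell with MKL1, at a median log2 ratio of -0.49 where the median of all genes was 0.00. In LifeAct cells 8 rose and 2 fell in low, and 9 of 10 rose in high cells (8 by library totals), at a median of 1.25 for high against negative. Over all genes in LM2, 31.9% rose and 33.0% fell with caMKL1, and 7.24% and 4.74% with MKL1. The shares in 4T1 were 36.2% and 35.8% with caMKL1, and 19.3% and 15% with MKL1. For LifeAct they were 26.0% and 23.6% in low cells, and 36.0% and 35.2% in high cells. The 4 of 10 that rose with caMKL1 in LM2 are near the share of all genes.

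PSAT1, the aminotransferase of serine synthesis, had 316, 299 and 320.0 CPM in caMKL1, 191, 159.9 and 173 CPM in MKL1 and 99.7, 120.3 and 104 CPM in control libraries. The 3 groups did not overlap, with ratios to control of 1.53 ± 0.10 (adjusted p = 1.48e-09) for caMKL1 and 0.69 ± 0.10 (adjusted p = 0.000191) for MKL1. CTH, which makes cysteine from cystathionine, had 35.1, 35.7 and 34.8 CPM in caMKL1, 14.2, 13.1 and 11.8 CPM in MKL1 and 8.96, 9.56 and 9.08 CPM in control libraries. The groups were in the same order (1.94 ± 0.11, adjusted p = 4.61e-10 and 0.50 ± 0.11, adjusted p = 0.00893). MTHFD2, a mitochondrial folate enzyme, had 108, 101 and 101 CPM in caMKL1, 93.1, 73.1 and 70.8 CPM in MKL1 and 60.5, 63.4 and 52.0 CPM in control libraries. The groups again did not overlap (0.82 ± 0.11, adjusted p = 8.99e-06 and 0.43 ± 0.11, adjusted p = 0.0204). The transporter subunits showed another order. SLC7A5, a large neutral amino acid transporter, had 141, 109 and 94.7 CPM in caMKL1, 164, 152 and 119.9 CPM in MKL1 and 103, 102 and 90.8 CPM in control libraries. Its heavy chain SLC3A2 had 81.7, 54.2 and 59.3 CPM in caMKL1, 117, 67.5 and 68.9 CPM in MKL1 and 54.7, 56.5 and 44.8 CPM in control libraries. In both, MKL1 lay above control (0.56 ± 0.14, adjusted p = 0.0141 and 0.70 ± 0.19, adjusted p = 0.0265), while caMKL1 overlapped control (0.22 ± 0.14, adjusted p = 0.169 and 0.33 ± 0.19, adjusted p = 0.148). In SLC3A2 the first MKL1 library lay well above its replicates. PHGDH and ASNS, the first enzyme of serine synthesis and asparagine synthetase, had at most 1.66 and 2.50 CPM on average in any LM2 group, and neither passed against control with caMKL1 (-0.66 and 0.22 on the log2 scale). Exons of AC079781.5 cover 49.3% of the ASNS exon length, so its counts are uncertain.

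Most of the calls with MKL1 in LM2 cells were lost when 1 library was left out. Without control library 3, 3 of the 9 calls among the 45 genes were left. The calls that were lost then had log2 ratios of 0.40 (adjusted p = 0.111) for ATF4, 0.25 (0.187) for CEBPG, 0.35 (0.124) for MTHFD2, 0.51 (0.0907) for SLC7A5, 0.61 (0.146) for SLC3A2 and 0.43 (0.0918) for HERPUD1. Over all 9 libraries the ratios of these genes, in the same order, were 0.39, 0.28, 0.43, 0.56, 0.70 and 0.39. Without MKL1 library 1 they were 0.24, 0.21, 0.30, 0.47, 0.39 and 0.25. VLDLR, PSAT1 and CTH passed in each of the 9 fits that left out 1 library, and they were the 3 genes still higher by library totals. The count was 4 without MKL1 library 1, 4 without control library 1 and 5 without control library 2, and lay between 7 and 12 in the other 5 fits.

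In 4T1 cells most enzymes and transporters of this arm fell with MKL1. Mthfd2 had 126, 132 and 139.8 CPM in caMKL1, 86.3, 79.4 and 81.7 CPM in MKL1 and 141, 126 and 129 CPM in control libraries. MKL1 lay below control (-0.68 ± 0.046, adjusted p = 2.28e-11) and caMKL1 overlapped it (0.01 ± 0.044, adjusted p = 0.87). Cth had 38.3, 40.5 and 38.0 CPM in caMKL1, 18.4, 18.9 and 18.1 CPM in MKL1 and 29.9, 25.7 and 28.4 CPM in control libraries. It was lowest with MKL1 (-0.60 ± 0.065, adjusted p = 8.26e-08) and highest with caMKL1 (0.48 ± 0.059, adjusted p = 1.07e-07). Slc7a11, the cystine-glutamate exchanger, had 47.1, 49.2 and 50.1 CPM in caMKL1, 38.9, 39.3 and 45.3 CPM in MKL1 and 66.1, 62.7 and 72.5 CPM in control libraries. It was below control with both constructs (-0.46 ± 0.056, adjusted p = 1.18e-07 with caMKL1 and -0.70 ± 0.058, adjusted p = 7.53e-10 with MKL1). Psat1 had 256, 264 and 275 CPM in caMKL1, 305, 304 and 312 CPM in MKL1 and 447, 418 and 428 CPM in control libraries. Shmt2, the mitochondrial serine hydroxymethyltransferase, had 179.6, 192 and 195 CPM in caMKL1, 198, 195 and 194 CPM in MKL1 and 310.2, 262 and 278 CPM in control libraries. Control was the highest group in both, with caMKL1 at -0.70 ± 0.031 (adjusted p = 8.97e-16) for Psat1 and -0.58 ± 0.044 (adjusted p = 1.92e-11) for Shmt2 and MKL1 at -0.49 ± 0.031 (adjusted p = 8.29e-12) and -0.54 ± 0.044 (adjusted p = 7.61e-10). Phgdh was the gene of the 10 that did not pass with MKL1 (-0.06, adjusted p = 0.319). Asns, Slc7a5 and Slc3a2 fell with MKL1 by 0.50, 0.48 and 0.38 on the log2 scale. With caMKL1, Asns and Phgdh rose by 0.32 and 0.28, and Slc3a2 by 0.24, or 0.06 (adjusted p = 0.222) by library totals. Psph, the phosphatase of serine synthesis, rose by 0.14 with caMKL1, with an adjusted p of 0.0581 without control library 2 and a ratio of -0.04 (adjusted p = 0.434) by library totals.

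In LifeAct high against negative cells the 4 highest ratios of this arm were those of SLC3A2, PSAT1, CTH and SLC7A5. SLC3A2 had 98.7, 95.1 and 93.7 CPM in negative, 196, 202 and 204 CPM in low and 534, 482 and 488 CPM in high libraries. SLC7A5 had 125, 128 and 116 CPM in negative, 262, 261 and 245 CPM in low and 428, 383 and 399 CPM in high libraries. Neither had overlapping groups, with high against negative at 2.39 ± 0.045 (adjusted p = 2.36e-26) for SLC3A2 and 1.71 ± 0.047 (adjusted p = 1.29e-22) for SLC7A5, and low at 1.07 ± 0.045 (adjusted p = 2.22e-17) and 1.05 ± 0.048 (adjusted p = 6.82e-17). PSAT1 had 22.7, 23.5 and 21.3 CPM in negative, 64.5, 60.7 and 66.1 CPM in low and 81.4, 81.0 and 79.5 CPM in high libraries. Most of its difference was already present in low cells (1.50 ± 0.061, adjusted p = 7.07e-18 for low and 1.84 ± 0.06, adjusted p = 5.78e-21 for high against negative). CTH had 10.7, 8.91 and 10.2 CPM in negative, 12.7, 13.1 and 12.4 CPM in low and 34.8, 32.2 and 34.1 CPM in high libraries. The larger step was between low and high (1.41 ± 0.079, adjusted p = 9.86e-15). MTHFD2, PHGDH, PSPH and SHMT2 were at 1.28, 1.21, 0.81 and 0.58 on the log2 scale in high against negative cells. Between low and high, SHMT2 did not pass (0.06, adjusted p = 0.202), and the PHGDH call (0.53, adjusted p = 0.0229) was lost in 4 fits that left out 1 library, those without low library 1 or 2 or high library 1 or 3, and with DESeq2 (adjusted p = 0.0717). ASNS and SLC7A11 were the pair that fell in low cells (-0.53 and -0.21), and the ASNS call was lost without negative library 1 (adjusted p = 0.094) or low library 3 (0.129). In high cells ASNS did not pass (0.35, adjusted p = 0.0535). SLC7A11 rose there, a call lost by library totals (0.11, adjusted p = 0.0548) and in 3 fits that left out 1 library.

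**Figure D3:**
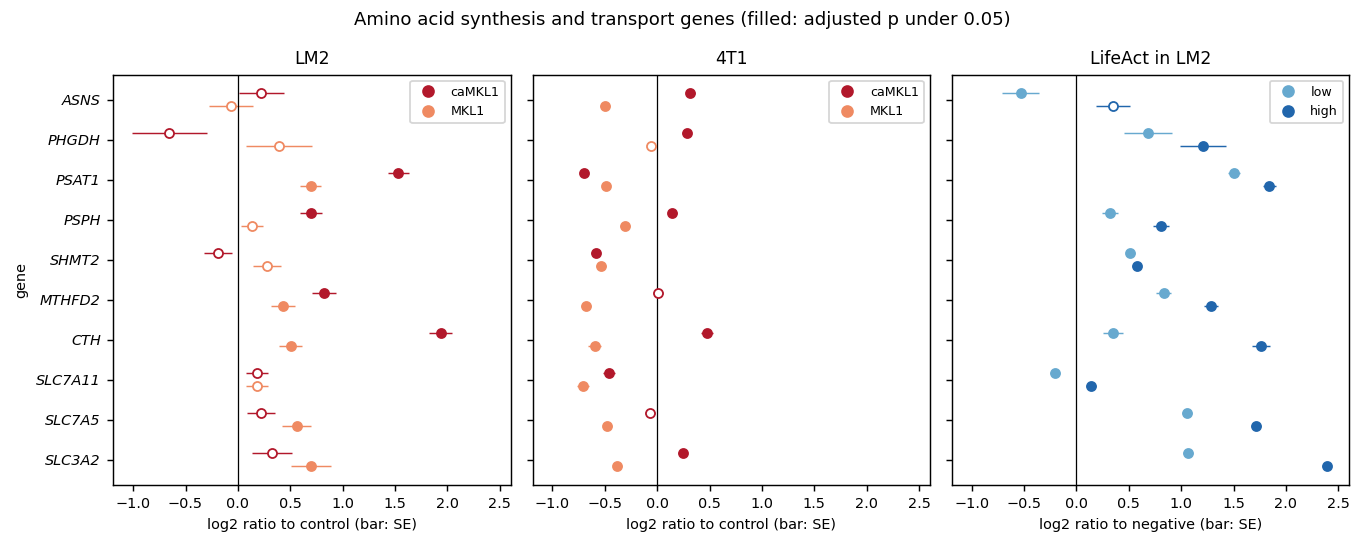
Log2 ratios (points) with standard errors (lines) of the 10 amino acid genes against control or negative in each experiment, filled where the adjusted p was under 0.05. In the 4T1 panel 9 of 10 MKL1 points are filled and left of 0, in the LM2 panel the 5 filled MKL1 points are right of 0, and in the LifeAct panel high cells reach 2.39 at SLC3A2.

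In LM2 cells 9 of 18 ER genes rose and 6 fell with caMKL1 (6 and 8 by library totals). Of all genes 31.9% rose and 33.0% fell, so the count of falls is near that share. With MKL1, 1 rose while 17 did not pass (0 and 2 by library totals), against 7.24% of all genes higher and 4.74% lower. HSPA5, the main ER chaperone BiP, had 1178, 1243 and 1289 CPM in caMKL1, 844, 776 and 764 CPM in MKL1 and 735, 752 and 817 CPM in control libraries. All caMKL1 libraries were the higher ones (0.69 ± 0.093, adjusted p = 8.5e-06), and MKL1 overlapped control (0.05 ± 0.093, adjusted p = 0.783). XBP1 had 62.9, 58.4 and 54.8 CPM in caMKL1, 65.0, 49.6 and 51.6 CPM in MKL1 and 44.3, 46.8 and 44.7 CPM in control libraries. It was above control with caMKL1 (0.38 ± 0.11, adjusted p = 0.00607), but by library totals the ratio was -0.03 (adjusted p = 0.844). Its MKL1 libraries also lay above control, without passing (0.29 ± 0.11, adjusted p = 0.0912). HERPUD1, a component of ER-associated degradation, had 167, 182 and 185 CPM in caMKL1, 53.1, 38.6 and 41.6 CPM in MKL1 and 30.7, 35.6 and 35.3 CPM in control libraries. The caMKL1 libraries lay far above the rest (2.39 ± 0.12, adjusted p = 5.86e-11) and MKL1 above control (0.39 ± 0.12, adjusted p = 0.0365). The MKL1 call was lost by library totals (0.32, adjusted p = 0.106), with limma voom (adjusted p = 0.0503) and in 5 of the 9 fits that left out 1 library, with a ratio of 0.25 without MKL1 library 1. DNAJC3, an ER co-chaperone, had 387, 424 and 409 CPM in caMKL1, 100.1, 105 and 98.4 CPM in MKL1 and 123, 120.1 and 114 CPM in control libraries. It was high with caMKL1 (1.77 ± 0.084, adjusted p = 3.8e-11) and, without passing, below control with MKL1 (-0.23 ± 0.083, adjusted p = 0.0789). MANF, a secreted ER stress protein, had 21.4, 19.9 and 22.7 CPM in caMKL1, 62.2, 54.0 and 51.2 CPM in MKL1 and 52.1, 53.4 and 59.6 CPM in control libraries. It was low with caMKL1 alone (-1.37 ± 0.11, adjusted p = 1.3e-08).

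Genes that carry the ER stress element shown above went both ways with caMKL1 in LM2 cells. HSPA5, HSP90B1 and XBP1 rose (0.69, 0.70 and 0.38 on the log2 scale), CALR, CANX and CRELD2 fell (-0.77, -0.32 and -1.17), and PDIA6 did not pass (-0.01). CALR and CANX are the lectin chaperones calreticulin and calnexin, HSP90B1 is the ER HSP90 and PDIA6 a disulfide isomerase. The sensors ERN1 and ATF6 rose by 1.05 and 0.26, where the ATF6 value turned to -0.15 (adjusted p = 0.0976) by library totals. PDIA3 rose by 0.95 while PDIA4 fell by 0.30, and PDIA4 had an adjusted p of 0.0696 without caMKL1 library 2, 0.105 without caMKL1 library 3, 0.0546 without control library 2 and 0.0761 without control library 3. The ATF6 call was likewise lost without caMKL1 library 2 (0.0717), caMKL1 library 3 (0.0809), control library 1 (0.0536) or control library 2 (0.0798). EDEM1, which sorts misfolded glycoproteins for degradation, fell by 0.45, and DNAJB9 rose by 0.51, or 0.11 (adjusted p = 0.461) by library totals.

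In 4T1 cells 12 of 18 ER genes rose and 3 fell with caMKL1 (9 and 5 by library totals), and 3 rose and 8 fell with MKL1 (1 and 10 by library totals). Of all genes, 36.2% rose and 35.8% fell with caMKL1, and 19.3% rose and 15% fell with MKL1. Edem1 had 379, 362 and 354 CPM in caMKL1, 136, 129 and 128 CPM in MKL1 and 101, 104 and 101 CPM in control libraries. All 3 groups were apart (1.84 ± 0.034, adjusted p = 1.6e-23 with caMKL1 and 0.36 ± 0.035, adjusted p = 1.23e-08 with MKL1). Herpud1 had 116, 122 and 126 CPM in caMKL1, 46.0, 46.3 and 49.6 CPM in MKL1 and 58.2, 53.3 and 60.2 CPM in control libraries. It was high with caMKL1 (1.09 ± 0.045, adjusted p = 2.23e-16) and below control with MKL1 (-0.27 ± 0.05, adjusted p = 0.000114). Ern1, the gene of IRE1, had 63.3, 61.6 and 56.1 CPM in caMKL1, 127, 126 and 109 CPM in MKL1 and 151, 141 and 139.8 CPM in control libraries. It was lowest with caMKL1 (-1.25 ± 0.052, adjusted p = 2.19e-16), with MKL1 between the others (-0.25 ± 0.049, adjusted p = 0.000267). Hspa5 had 2181, 2178 and 2213 CPM in caMKL1, 1467, 1459.7 and 1510.5 CPM in MKL1 and 1634, 1718 and 1699 CPM in control libraries. It was up with caMKL1 (0.38 ± 0.026, adjusted p = 3e-12) and down with MKL1 (-0.19 ± 0.026, adjusted p = 3.24e-06). Xbp1 had 105, 107 and 109 CPM in caMKL1, 93.1, 88.3 and 94.1 CPM in MKL1 and 85.0, 85.5 and 97.3 CPM in control libraries. It was up with caMKL1 (0.26 ± 0.045, adjusted p = 1.29e-05), a call lost by library totals (0.08, adjusted p = 0.0965), and MKL1 overlapped control (0.04 ± 0.045, adjusted p = 0.544). Sdf2l1, an ER protein that works with BiP, had 14.4, 15.4 and 16.6 CPM in caMKL1, 12.3, 12.5 and 12 CPM in MKL1 and 14.7, 15.1 and 14.2 CPM in control libraries. It was low with MKL1 (-0.26 ± 0.076, adjusted p = 0.0106). Among the others, Dnajb9, Manf, Calr, Pdia4 and Dnajc3 rose with caMKL1, by 1.01, 0.89, 0.49, 0.48 and 0.46 on the log2 scale, and Creld2 and Pdia6 fell, by 0.54 and 0.23.

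With LifeAct 11 of 18 ER genes rose and 1 fell in low cells, and 12 rose and 4 fell in high cells. The shares of all genes that rose and fell were 26.0% and 23.6% in low cells and 36.0% and 35.2% in high cells. HSPA5 had 642, 643 and 639 CPM in negative, 982, 986 and 1001 CPM in low and 976, 944 and 943 CPM in high libraries. Both positive groups lay above negative (0.63 ± 0.034, adjusted p = 4.1e-15 for low and 0.57 ± 0.034, adjusted p = 6.36e-15 for high). The high libraries lay just under the low ones without passing (-0.05 ± 0.034, adjusted p = 0.201). SDF2L1 had 4.32, 4.26 and 4.27 CPM in negative, 11.2, 9.73 and 8.41 CPM in low and 10.1, 10.2 and 9.36 CPM in high libraries. Low and high libraries overlapped (1.18 ± 0.13, adjusted p = 9.11e-09 for low and 1.20 ± 0.13, adjusted p = 2.3e-09 for high). MANF had 58.6, 57.0 and 50.0 CPM in negative, 78.2, 77.9 and 81.7 CPM in low and 74.4, 71.0 and 72.3 CPM in high libraries. It was also highest in low cells (0.52 ± 0.056, adjusted p = 7e-09 for low and 0.40 ± 0.057, adjusted p = 4.78e-07 for high, both against negative). Between low and high cells MANF did not pass. XBP1 had 64.6, 72.2 and 72.3 CPM in negative, 81.3, 78.2 and 78.5 CPM in low and 135, 129.6 and 125 CPM in high libraries. Its main step was between low and high (0.71 ± 0.05, adjusted p = 1.22e-12), with a ratio of 0.90 ± 0.051 (adjusted p = 2.39e-15) for high against negative. EDEM1 had 247, 238 and 257 CPM in negative, 193, 199.7 and 198 CPM in low and 133, 134 and 136 CPM in high libraries. It fell with each step (-0.33 ± 0.041, adjusted p = 7.87e-08 for low and -0.88 ± 0.042, adjusted p = 3.22e-17 for high). HSP90B1, PDIA4 and PDIA6 also fell in high cells, by 0.35, 0.21 and 0.13, the last with an adjusted p of 0.0807 without high library 2. ERN1, DNAJB9, CALR, CANX and CRELD2 rose in high cells, by 0.81, 0.75, 0.51, 0.47 and 0.42. SEL1L, the adaptor of an ER degradation ligase, did not pass in any of the 9 comparisons. HERPUD1, the gene of this arm with the highest ratio for caMKL1 in LM2 cells, did not pass in high cells (0.07, adjusted p = 0.205).

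Of the heat shock and heme genes, 3 of 7 rose and 2 fell with caMKL1 in LM2 cells (3 and 4 by library totals), where 31.9% of all genes rose and 33.0% fell, so these counts are near the share over all genes. HSPA1A and HSPA1B encode the same inducible HSP70, and 67.1% and 66% of their 150-base transcript windows are identical, so the split of reads between the pair, and their counts, are uncertain. HSPA1A had 13.5, 24.6 and 23.1 CPM in caMKL1, 2.07, 1.64 and 1.96 CPM in MKL1 and 1.50, 1.14 and 2.22 CPM in control libraries. HSPA1B had 84.4, 96.7 and 97.2 CPM in caMKL1, 25.0, 22.1 and 27.1 CPM in MKL1 and 23.1, 19.0 and 21.7 CPM in control libraries. Both were high in caMKL1 alone (3.65 ± 0.26, adjusted p = 4.39e-09 and 2.12 ± 0.11, adjusted p = 1.24e-10), and MKL1 overlapped control (0.23 ± 0.29, adjusted p = 0.657 and 0.22 ± 0.11, adjusted p = 0.22). DNAJB1, their HSP40 partner, had 218, 190.5 and 177 CPM in caMKL1, 147, 113 and 136 CPM in MKL1 and 101, 101 and 114 CPM in control libraries. It was high with caMKL1 (0.89 ± 0.11, adjusted p = 2.77e-06) and overlapped between MKL1 and control. HSPH1 and HSP90AA1 fell (-0.57 and -0.43), and HSPA8, the constitutive HSP70, did not pass (-0.12). With MKL1 in LM2, 0 of the 7 passed with edgeR or limma voom, against 1 higher with DESeq2 and 1 at an unadjusted p under 0.05.

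In 4T1 cells 5 of 6 tested genes rose with caMKL1 and 1 fell (3 and 1 by library totals), and 4 rose and 1 fell with MKL1 (2 and 1 by library totals). The shares of all genes that rose and fell were 36.2% and 35.8% with caMKL1 and 19.3% and 15% with MKL1. Hspa1b had 29.6, 32.6 and 29.0 CPM in caMKL1, 10.1, 12 and 8.90 CPM in MKL1 and 9.24, 8.05 and 7.98 CPM in control libraries. It was high with caMKL1 (1.85 ± 0.088, adjusted p = 2.78e-15) and overlapped between MKL1 and control, where its call (0.30 ± 0.10, adjusted p = 0.0234) was lost without MKL1 library 2 (adjusted p = 0.233), control library 2 (0.0861) or control library 3 (0.0747). Hspa1a, with 0.178, 0.405 and 0.408 CPM in caMKL1, 0.130, 0.121 and 0.0456 CPM in MKL1 and 0, 0.128 and 0.113 CPM in control libraries, was under the filter on low counts. Hmox1, heme oxygenase 1, had 45.8, 48.0 and 54.1 CPM in caMKL1, 22.1, 22.2 and 25.7 CPM in MKL1 and 20.2, 17.1 and 17.8 CPM in control libraries. It was up with both constructs (1.43 ± 0.072, adjusted p = 1.02e-14 and 0.35 ± 0.079, adjusted p = 0.00125). Dnajb1 had 73.9, 69.4 and 74.8 CPM in caMKL1, 41.7, 40.4 and 43.9 CPM in MKL1 and 41.9, 38.8 and 38.4 CPM in control libraries. It was up with caMKL1 (0.87 ± 0.048, adjusted p = 5.12e-14). Hsph1 had 128, 117 and 118 CPM in caMKL1, 115, 117 and 121 CPM in MKL1 and 103, 111 and 105 CPM in control libraries. It was above control with both constructs (0.18 ± 0.039, adjusted p = 0.000176 and 0.15 ± 0.039, adjusted p = 0.00475), by margins lost by library totals (0.00, adjusted p = 0.978 and 0.08, adjusted p = 0.117). Hsp90aa1 rose by 0.21 with caMKL1, a call lost by library totals (0.03, adjusted p = 0.364). Hspa8 was the gene that fell with caMKL1 (-0.34).

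With LifeAct 5 of 7 heat shock and heme genes rose and 1 fell in low cells, and 5 rose in high cells. Of all genes, 26.0% rose and 23.6% fell in low cells, and 36.0% rose and 35.2% fell in high cells. HSPA8 had 907, 906 and 895 CPM in negative, 1431, 1432 and 1479.5 CPM in low and 1858, 1773 and 1760.1 CPM in high libraries. Its groups lay in steps that did not overlap (0.68 ± 0.034, adjusted p = 7.31e-16 for low and 0.99 ± 0.034, adjusted p = 2.21e-20 for high). HSP90AA1, the inducible cytosolic HSP90, had 1203, 1190.0 and 1243 CPM in negative, 1804, 1779 and 1833 CPM in low and 1823, 1838 and 1848 CPM in high libraries. Low and high libraries overlapped, both above negative (0.57 ± 0.033, adjusted p = 1.41e-14 and 0.60 ± 0.033, adjusted p = 1.13e-15). HMOX1 had 11.9, 11.9 and 12.3 CPM in negative, 17.9, 18.3 and 15.6 CPM in low and 35.5, 34.6 and 31.5 CPM in high libraries. It was highest in high cells (1.50 ± 0.084, adjusted p = 1.81e-15). HSPA1B had 33.3, 28.6 and 30.0 CPM in negative, 38.0, 37.0 and 38.3 CPM in low and 36.2, 35.2 and 35.8 CPM in high libraries. HSPA1A had 3.25, 2.52 and 3.11 CPM in negative, 3.55, 3.26 and 3.73 CPM in low and 3.92, 3.58 and 3.36 CPM in high libraries. Their changes were small, at 0.22 ± 0.066 (adjusted p = 0.00409) for HSPA1B and 0.29 ± 0.17 (adjusted p = 0.121) for HSPA1A in high against negative cells. HSPH1 fell in low cells (-0.42) and did not pass in high cells (0.02), and DNAJB1 rose by 0.35 in high cells. HSPA8 and HSP90AA1, the pair with an exact match to the letters searched for the heat shock element, both rose with LifeAct. Of the genes searched without a match, HSPA1B and DNAJB1 also rose in high cells, and HSPA1A and HSPH1 did not pass there. With caMKL1 in LM2 cells HSPA8 did not pass and HSP90AA1 fell. The difference between the experiments was not tested.

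**Figure D4:**
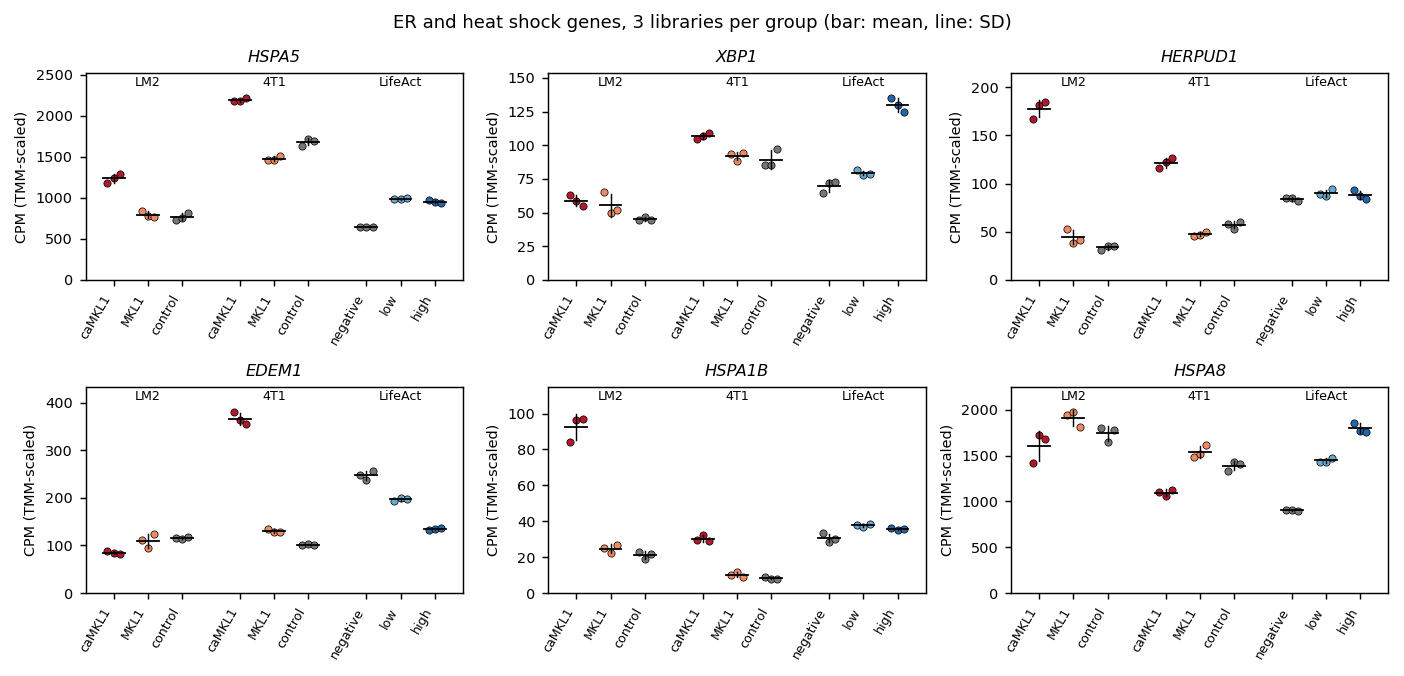
CPM (linear axis from 0) of 4 ER genes and 2 heat shock genes in each of the 27 libraries (points), with group means (bars) and SD (lines). HERPUD1 and HSPA1B stand high with caMKL1 in both lines, EDEM1 is high with caMKL1 in 4T1 and falls along the LifeAct series, and HSPA8 is highest along that series in LifeAct high at a mean of 1797 CPM.

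Set directly against MKL1, caMKL1 gave higher levels of most of the genes in 4T1 cells and of fewer in LM2 cells. Over all genes, 32.6% were higher and 31.9% lower in caMKL1 in LM2, and 33.8% and 32.8% in 4T1. The LM2 counts of the amino acid arm are near these shares. In LM2 cells 4 of 10 ATF4-CHOP regulators were higher and 1 lower in caMKL1 (4 and 3 by library totals), with ATF3 at 3.50 ± 0.16 (adjusted p = 3.11e-11) and CEBPB at -2.02 ± 0.16 (adjusted p = 1.41e-08). In 4T1 cells 9 were higher and 1 lower, with Ppp1r15a at 2.77 ± 0.089 (adjusted p = 2.24e-18) and Chac1 at 1.79 ± 0.073 (adjusted p = 2.26e-16). Of the amino acid genes, 4 were higher and 3 lower in caMKL1 in LM2 (2 and 5 by library totals), against 8 higher and 1 lower in 4T1 (8 and 2 by library totals). CTH was higher in caMKL1 in both lines, by 1.43 in LM2 and 1.07 in 4T1, while PSAT1 was higher in LM2 (0.84) and lower in 4T1 (-0.21). SLC7A5 was lower in caMKL1 in LM2 (-0.34) and higher in 4T1 (0.41). The LM2 call was lost with DESeq2 size factors (adjusted p = 0.0574), with DESeq2 (0.0654) and in 4 of the 9 fits that left out 1 library, with a ratio of -0.22 (adjusted p = 0.202) without caMKL1 library 3. Of the ER genes, 8 were higher and 6 lower in caMKL1 in LM2 (5 and 8 by library totals), against 13 and 2 in 4T1 (12 and 5 by library totals), with HERPUD1 higher by 2.00 in LM2 and 1.36 in 4T1. Of the heat shock and heme genes, 3 were higher and 3 lower in LM2 (2 and 4 by library totals), against 4 and 1 in 4T1.

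The difference between the lines was tested directly, as an interaction in a joint fit of 18 libraries over 13113 genes matched by symbol. With caMKL1, 32 of the 45 genes differed between 4T1 and LM2, against 60.3% of all genes tested. In each line's own fit, 16 rose in both lines and 2 fell in both, and 9 were called in opposite directions. The shares of all matched genes called alike or oppositely were not counted, so these counts are not read as particular to the 45. Over all genes tested in each line, 31.9% rose and 33.0% fell in LM2, and 36.2% rose and 35.8% fell in 4T1. EDEM1, MANF, CALR, PDIA4, TRIB3, HSPH1 and HSP90AA1 rose in 4T1 and fell in LM2, while ERN1 and PSAT1 fell in 4T1 and rose in LM2. The largest of these differences were -2.43 ± 0.11 (adjusted p = 6.52e-14) for ERN1, -2.36 ± 0.10 (adjusted p = 2.05e-14) for PSAT1, 2.16 ± 0.11 (adjusted p = 2.06e-13) for EDEM1 and 2.13 ± 0.11 (adjusted p = 2.27e-13) for MANF, as 4T1 minus LM2 on the log2 scale. ATF3 rose in both lines but less in 4T1 (-1.39 ± 0.18, adjusted p = 9.13e-07), as did ATF4 (-0.90 ± 0.12, adjusted p = 8.66e-07). PPP1R15A differed by 2.46 ± 0.22 (adjusted p = 2.48e-09) in favour of 4T1.

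With MKL1, 16 of the 45 differed between the lines, against 19.9% of all genes, and 15 of the 16 were lower in 4T1. The median difference over all genes was -0.02. How many of all genes were lower in 4T1, or called with opposite sign in the lines, was not counted. The directions are therefore not read as particular to the 45. Amino acid genes made up 8 of the 16 and ATF4-CHOP regulators 5. Called in both lines with opposite sign, down in 4T1 and up in LM2, were ATF4, CEBPG, PSAT1, MTHFD2, CTH, SLC7A5, SLC3A2 and HERPUD1. ATF4 differed by -0.66 ± 0.12 (adjusted p = 0.000442), PSAT1 by -1.21 ± 0.10 (adjusted p = 4.42e-08), MTHFD2 by -1.13 ± 0.12 (adjusted p = 1.53e-06) and SLC3A2 by -1.10 ± 0.22 (adjusted p = 0.00107). Of the ER arm, HERPUD1 differed by -0.69 ± 0.13 (adjusted p = 0.00074). EDEM1, the gene of the 16 that was higher in 4T1, differed by 0.42 ± 0.11 (adjusted p = 0.0081). The lines also differ in species and in how far MRTFA was raised, which cannot be told apart here.

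**Figure D5:**
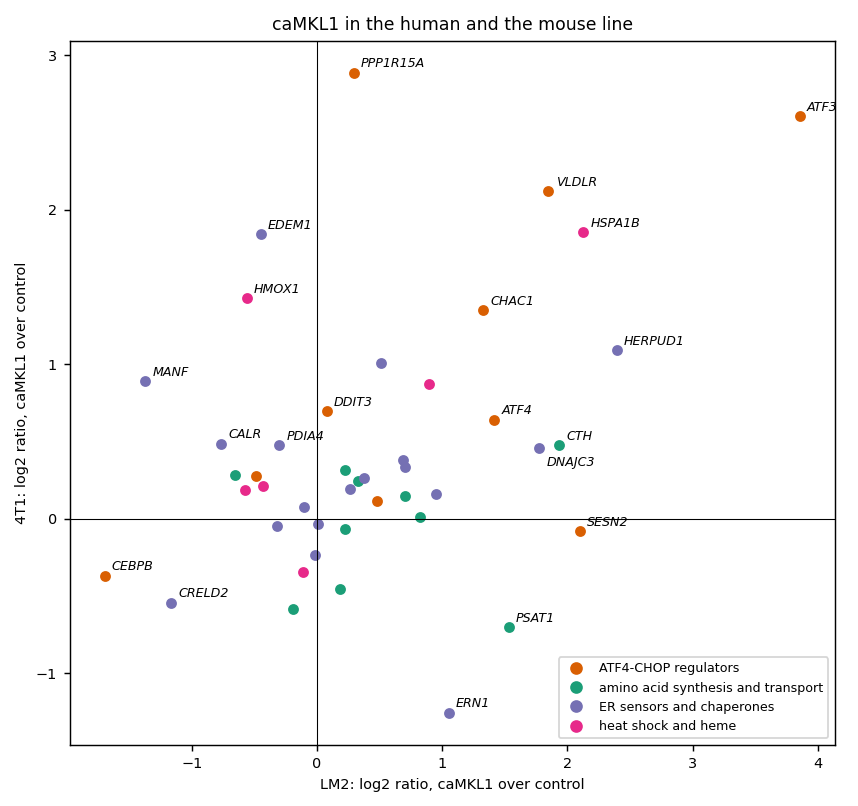
Log2 ratios of caMKL1 over control in LM2 (horizontal) and 4T1 (vertical) for the 44 genes tested in both, coloured by arm. ATF3, VLDLR and HSPA1B lie up and right, EDEM1 and MANF up and left, and PSAT1 and ERN1 down and right, where ERN1 is at 1.05 in LM2 and -1.25 in 4T1.

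Other genes of the same pathways, none of them among the 45, were read from the same fits. Over all genes tested, 31.9% rose and 33.0% fell with caMKL1 in LM2, 36.2% and 35.8% with caMKL1 in 4T1, 7.24% and 4.74% with MKL1 in LM2, 19.3% and 15% with MKL1 in 4T1, 26.0% and 23.6% in LifeAct low cells and 36.0% and 35.2% in LifeAct high cells. Of 13 aminoacyl-tRNA synthetases, which charge transfer RNAs and are ATF4 targets, 12 fell with MKL1 in 4T1 cells (median log2 ratio -0.29), led by Lars (-0.42), Nars (-0.34) and Mars1 (-0.36). With LifeAct, 11 rose in low and 12 in high cells (median 0.92), led in high cells by TARS1 (1.30), WARS1 (1.63) and IARS1 (0.99). With caMKL1 in LM2, 4 rose and 8 fell (median -0.42, or -0.83 by library totals), and GARS1 at 1.99 and TARS1 at 1.34 are among the 4. Of the other ATF4 targets, 15 of 17 tested fell with MKL1 in 4T1 cells, and with caMKL1 10 rose and 7 fell, with Nupr1 at 1.40 and Atf5 at 1.04. In LifeAct high cells 13 of 20 rose and 4 fell, with the amino acid transporter SLC1A5 at 1.45 and DDIT4 at -1.72. In LM2 with caMKL1 8 of 18 rose and 4 fell (median 0.06, or -0.35 by library totals), with SLC7A1 at 1.57 and SLC1A4 at 2.15.

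Of 13 genes for eIF2 kinases, eIF2 and eIF2B, 10 rose and 0 fell in LifeAct high cells, while 4 rose and 7 fell with caMKL1 in LM2 and 6 rose and 6 fell in 4T1. EIF2AK3, the gene of PERK, rose with caMKL1 in LM2 (0.78) and in 4T1 (0.80). Of 24 other ER folding and degradation genes tested, 11 rose and 10 fell with caMKL1 in 4T1, led by Dnajc10 (1.88), an ER disulfide reductase, and 8 rose and 10 fell in LM2, where CREB3L2 (-1.76) and CREB3 (1.67) moved apart. HYOU1, an ER chaperone, was at 0.64 in LifeAct low and 0.65 in high cells. Of 17 other heat shock genes, 7 rose and 7 fell with caMKL1 in LM2 and likewise 7 and 7 in 4T1, with the small heat shock gene HSPB1 at 4.08 in LM2 and 4.84 in 4T1. These heat shock counts are close to the shares over all genes, and by library totals the list's median log2 ratio was -0.36 in LM2 and -0.14 in 4T1, in place of 0.06 and 0.05. Of 19 NRF2 targets, which share HMOX1's oxidative stress control, 12 rose and 5 fell in LifeAct high cells, with OSGIN1 at 2.42, and with MKL1 in LM2 6 of 18 tested rose and 2 fell, with SQSTM1 at 0.81 and NQO1 at 0.85.

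Levels between genes were compared per length, as CPM per kilobase of exon. The length covers all exons annotated to a gene, so the order depends on the annotation. HSP90B1 has 13092 bases in human and 4032 in mouse. In LM2 control libraries its mean of 1086 CPM becomes 82.9 per kilobase. In LM2 control libraries HSP90AA1 was highest at 702, then HSPA8 at 359.6, CALR at 251 and CANX at 139, and PHGDH lowest at 0.138. In 4T1 control libraries Hspa5 led at 398, and Phgdh was at 79.8. In LifeAct negative libraries, made with ribosomal RNA depletion, CALR led at 250.4 and PHGDH was again lowest at 0.154. ATF4 was the highest of the ATF4-CHOP regulators in each, at 66.9, 134 and 102 CPM per kilobase in LM2 control, 4T1 control and LifeAct negative libraries. Several genes that changed most started low, with ATF3 at 1.30 and HSPA1A at 0.674 in LM2 control libraries.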

How the data were processed

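RNA of 27 bulk libraries was sequenced as 150-base paired reads, after polyA selection for LM2 and 4T1 and ribosomal RNA depletion for the LifeAct experiment, per the labels' protocols. The authors deposited raw read counts per gene name, made with STAR alignments and featureCounts 2.0.1 over exons of Ensembl 103 (GRCh38) or 102 (GRCm38) without a strand option, per the file headers, which also give each gene's exon length. The submitters' processing notes list DESeq2, hg38 and mm10. The version of STAR was not given in the sources used here. Totals were 22147429 to 32147377 counts per LM2, 21896459 to 29370432 per 4T1 and 15581289 to 23678322 per LifeAct library. Replicates of a group differed by more than sampling noise.

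From these counts, edgeR 4.0.16 in R 4.3.3 was run per experiment on its 9 libraries (filterByExpr with a minimum count of 10, TMM, quasi-likelihood F test, Benjamini-Hochberg over all genes, threshold 0.05). CPM are counts scaled to TMM-adjusted library totals. Log2 ratios use a prior count of 0.125, and each standard error is the ratio's size over the square root of F. Promoter windows come from RefSeq on GRCh38.p14, for human genes only. Alternatives were library totals, DESeq2 size factors, no filter, DESeq2 1.42.0, limma voom 3.58.1, a replicate block and each library left out. Within an experiment, values per library are given for up to 3 genes per arm and comparison with control or negative, those past the threshold with the largest log2 ratios, plus ATF4, DDIT3, HSPA5, XBP1, HSPA1A and HSPA1B. Of the other pathway lists, up to 3 genes with the smallest adjusted p are named. The 45 genes, arms and lists were chosen with earlier results of these data known. The steps were tested on simulated counts.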

Additional observations from a re-analysis of the deposited data

Results flagged for a closer look

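The following genes passed the threshold in both lines with opposite sign, and the difference between the lines itself passed the test, which is why they are listed. With caMKL1, as 4T1 minus LM2 on the log2 scale, TRIB3 differed by 0.63, CALR by 1.13, PDIA4 by 0.65, EDEM1 by 2.16, MANF by 2.13, HSPH1 by 0.63 and HSP90AA1 by 0.51, all higher in 4T1. PSAT1 differed by -2.36 and ERN1 by -2.43, both lower in 4T1. With MKL1, all 8 such genes were lower in 4T1. ATF4 differed by -0.66, CEBPG by -0.62, HERPUD1 by -0.69, PSAT1 by -1.21, MTHFD2 by -1.13, CTH by -1.12, SLC7A5 by -1.06 and SLC3A2 by -1.10. Each of these 17 differences kept its sign and its side of the threshold in every alternative run on them, which were DESeq2 size factors, library totals, no filter, a replicate block and the 18 fits that left out 1 library. PSAT1 is the gene on both lists. The MKL1 calls in LM2 on which the second list rests are those that single libraries or library totals could end for ATF4, CEBPG, MTHFD2, SLC7A5, SLC3A2 and HERPUD1. On the first list, the LM2 calls of TRIB3 and PDIA4 were lost in 3 and 4 of the 9 fits that left out 1 library, and PDIA4 also with DESeq2 and its size factors. By library totals the 4T1 calls of TRIB3, HSPH1 and HSP90AA1 were lost.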

How the results depend on the processing

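By library totals the log2 ratio in LM2 caMKL1 was -0.15 (adjusted p = 0.0976) for ATF6 and -0.0292 (adjusted p = 0.844) for XBP1, and in 4T1 caMKL1 it was -0.0386 (adjusted p = 0.434) for PSPH and -0.0216 (adjusted p = 0.46) for PDIA3, each opposite in sign to the reported rise. This follows from the construction, since library totals move the median of all genes downward in these comparisons. In LM2 MKL1, 5 of the 45 genes passed by library totals, in place of 9. Leaving out 1 library gave 3 to 12 of the 45 there, and 1106 to 2689 of all genes in place of 2264 (1267, 1243 and 1106 without control library 1, 2 and 3); the cause was not tested. The other counts over both directions stayed within 1.5 times the reported ones, but counts by direction moved more. By library totals, the members called lower were 17 in LM2 caMKL1 (10 as reported), 20 in LM2 caMKL1 against MKL1 (13), 13 in 4T1 caMKL1 (8), 9 in 4T1 caMKL1 against MKL1 (5), 9 in LifeAct high against low (5) and 12 in the caMKL1 line difference (20), and 4 were higher in 4T1 MKL1 (8). Over all genes, library totals gave 3861 lower in 4T1 MKL1 (2449), and in LM2 MKL1 no filter gave 2092 higher (1368) and the replicate block 1402 lower (896). Same-numbered libraries correlated at -0.1 to 0.55 (LM2), -0.09 to 0.41 (4T1) and -0.21 to 0.26 (LifeAct). Of 9 such pairs in each experiment, 6 in LM2, 5 in 4T1 and 1 in LifeAct correlated at over 0.1. The reported fits did not read the numbers as pairs. Libraries correlated best with their own number in 10 of 18 cases in LM2, 10 of 18 in 4T1 and 5 of 18 in LifeAct. With the replicate block, 35, 12 and 38 of the 45 genes passed in LM2 (caMKL1 and MKL1 against control, then caMKL1 against MKL1), 38, 32 and 40 in 4T1, 36, 40 and 35 in LifeAct (low and high against negative, then high against low), and 34 and 18 in the line differences. The shares of all genes that passed with the block are not given here, so these counts are not read as particular to the 45. With motifs searched on the 250 upstream bases only, the CARE was in 5 genes in place of 6, and the ER stress element in 7. Genes at about 1 CPM, such as CHAC1 and PHGDH in LM2, are limited by depth.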
